A study of Homo sapiens with 9 samples.

Results

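The expressed ZNF genes of A549 cells, a human lung adenocarcinoma line, were followed through depletion of REV1, a translesion DNA polymerase. Members were chosen by 2 criteria: a symbol made of ZNF, a number and at most 1 further letter, and a mean FPKM (fragment counts adjusted for the length of the transcript and the depth of sequencing) of at least 2 over the 3 scramble libraries. In all, 256 of the 499 genes with such a symbol met both, out of 18143 genes in the files. The cells had been transfected for 48 h with scramble siRNA (Scramble), SiREV1#1 or SiREV1#2, and each group held 3 libraries numbered 1 to 3. No agent other than the siRNA was given to any group, and all libraries come from this single line. The study's methods speak of independent repeats of its in vitro experiments, but the labels do not tie the libraries to separate cultures, so p-values measure the spread between these libraries, which may be technical.

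Most ZNF genes encode proteins with repeated zinc fingers, in which paired cysteines and histidines hold a zinc ion and neighbouring residues read DNA. Many of them also carry a KRAB domain, which binds the corepressor TRIM28 and thereby recruits SETDB1 and heterochromatin proteins to silence transposable elements and other targets. The symbol also covers proteins of other kinds, including factors of ribosome quality control, ribosome assembly and the mitotic spindle.

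Scramble FPKM chose the members, so scramble levels are given as description, and comparisons with Scramble are not fully independent of the choice. Shares of called genes over all genes tested include genes under 2 FPKM in Scramble, so that background was not chosen in the same way. Without a block for the replicate number, the fold change between the siRNAs uses no scramble value, although scramble libraries enter the estimate of the spread. With that block, scramble values also enter the fold change, because SiREV1#2 lacks counts for its last replicate. Scramble libraries then help to set the effect of that replicate number, so the blocked comparison is not fully independent of the choice either. Just inside the limit were ZNF510, ZNF197 and ZNF497, with mean scramble FPKM of 2.00, 2.03 and 2.05, and just outside it ZNF747, ZNF114 and ZNF615, with 1.99, 1.95 and 1.93. With a mean over all 9 libraries in place of the scramble mean, 258 genes would have been members. All 256 members passed the filter on low counts.

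Total counts were 13059082 in SiREV1#1 replicate 1 and between 18121913 and 20166451 in the other libraries. Members took 0.532 to 0.965% of a library's counts, with a median of 329 counts per member and library and a lowest value of 18. The count column of SiREV1#2 replicate 3 repeated that of replicate 2 and was counted once, so tests on counts hold 2 libraries of that group and FPKM values hold 3. REV1 FPKM was 7.23, 7.90 and 8.44 in Scramble, 2.60, 2.92 and 3.36 after SiREV1#1, and 3.62, 3.36 and 3.18 after SiREV1#2, and each siRNA group lay below all scramble libraries. The epithelial keratins KRT8 and KRT18 were at 1372 FPKM or more in every library, while the epithelial marker EPCAM was at 0.73 to 2.38. The markers of blood, endothelial, stromal and liver cells (PTPRC, PECAM1, COL1A1, COL3A1, ALB and HBB) were at 1.8 FPKM or less throughout.

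Members were expressed at low levels. Their mean scramble FPKM had a median of 5.21 (quartiles 3.34 and 9.77), against 13.4 over the 10449 genes at or above 2 FPKM, and 62 members reached 10 FPKM and 5 reached 50. The most abundant was ZNF207, a spindle assembly factor that binds BUB3. It was at 91.0, 145 and 143 FPKM in Scramble, 78.4, 67.7 and 66.5 after SiREV1#1, and 65.7, 77.6 and 78.2 after SiREV1#2. Both siRNA groups lay below all scramble libraries, and each gave a two-sided p of 0.1 in an exact permutation test, the smallest that 3 libraries against 3 allow. In edgeR's quasi-likelihood fit with the replicate number as a block the log2 fold change was -0.72 (SE 0.20, adjusted p = 0.054) after SiREV1#1 and -0.77 (SE 0.24, adjusted p = 0.15) after SiREV1#2, and neither passed. Of the 50-base words of its transcript, 20.7% occurred in transcripts of other genes.

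ZNF655, a zinc finger protein that interacts with VAV1, followed the replicate number more than the siRNA. Its FPKM was 25.4, 106 and 108 in Scramble, 19.2, 93.8 and 93.4 after SiREV1#1, and 29.9, 203 and 190.1 after SiREV1#2. Replicate 1 was the lowest library in all 3 groups. ZNF146, a protein made almost entirely of fingers, was at 56.8, 80.9 and 84.9 in Scramble, 16.1, 24.5 and 26.4 after SiREV1#1, and 52.8, 99.0 and 96.9 after SiREV1#2. The SiREV1#1 libraries lay below every other library. ZNF787 showed the reverse: it was at 31.4, 74.0 and 69.8 in Scramble, 28.7, 63.5 and 62.0 after SiREV1#1, and 15.5, 22.1 and 19.4 after SiREV1#2. ZNF580, the fifth by level, overlapped with Scramble in both siRNA groups, with 36.7, 60.0 and 57.1 in Scramble, 73.9, 54.1 and 56.2 after SiREV1#1, and 33.3, 53.6 and 52.2 after SiREV1#2.

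**Figure D1:**
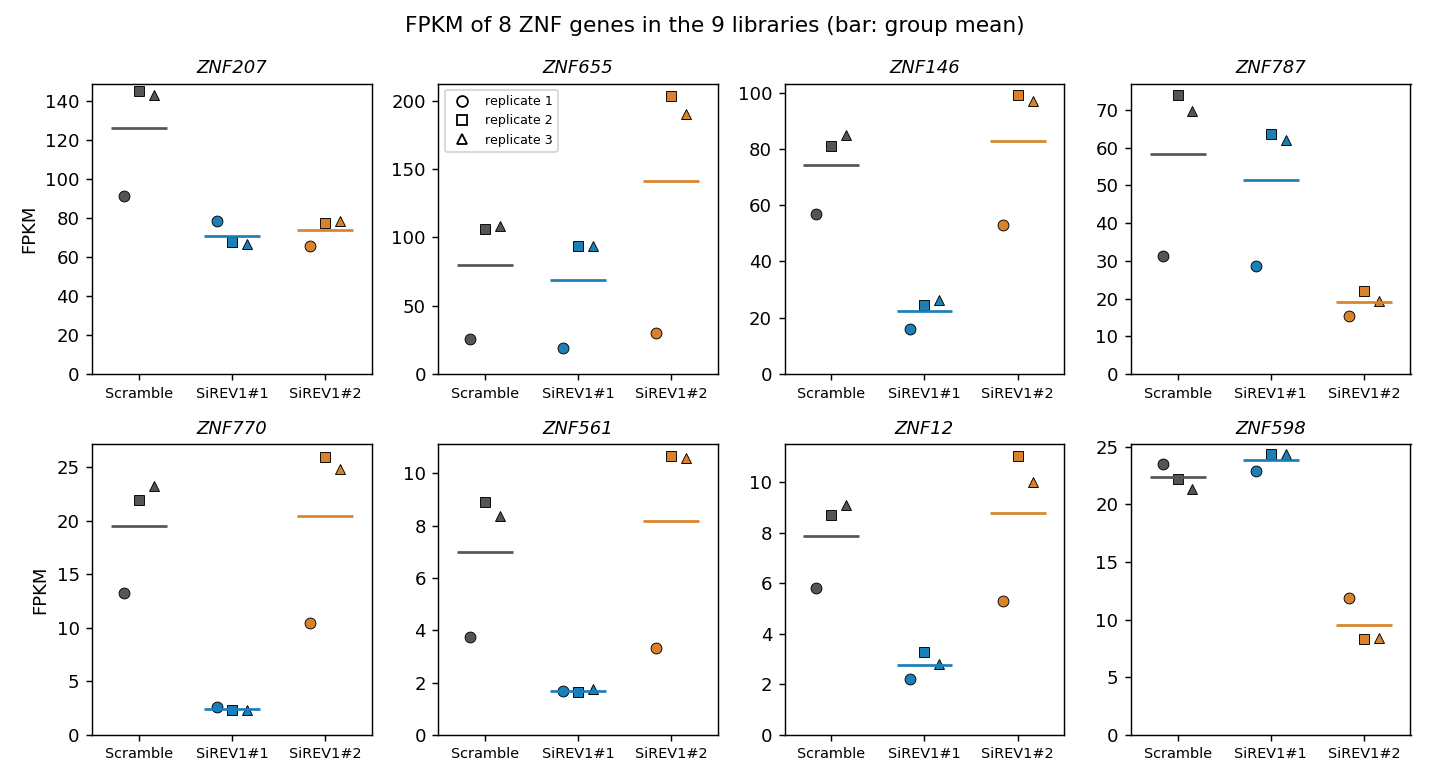
FPKM (y axes from 0) of 8 members in the 9 libraries, by group on the x axes. Circles, squares and triangles are replicates 1, 2 and 3, and bars are group means. ZNF770, ZNF561, ZNF12 and ZNF146 were lowest after SiREV1#1, ZNF787 and ZNF598 after SiREV1#2, ZNF207 after both, and ZNF655 in replicate 1 of each group.

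Members shared features that the choice did not use. Of 256 members, all matched to GENCODE release 29 on GRCh38, 91 (35.5%) lay on chromosome 19, which held 7.54% of the 13879 matched genes that were tested. Chromosomes 16, 7 and 1 followed with 24, 19 and 15. A pattern of cysteines and histidines typical of a finger (2 to 4 residues between the cysteines, 12 to the first histidine and 3 to 5 between the histidines) occurred 9 times in the median member and at most 33 times, and 5 members had none. A KRAB A-box pattern was found in 117 members (45.7%). This pattern misses divergent boxes, so 117 is a description and not a count of all KRAB proteins. Members with it had a median of 11 fingers and a coding GC content of 44.1%, and the other 139 had 7 fingers and 53.4%. The KRAB pattern was present in 62 of the 91 members on chromosome 19.

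The repeats are visible in the DNA. The 12-base coding word found in the most members, which encodes a glutamate, a finger cysteine, a glycine and a lysine, occurred in 87 members (34.0%) and in 29 of 16937 genes without a ZNF symbol (0.171%). The word was picked for its number of members, so that share is a description. It is shown in capitals in 30-base stretches of the coding strand (GRCh38, GENCODE 29) of 3 members: ZNF699 at chr19:9296537-9296566 on the minus strand, with 5 copies in its coding sequence, ZNF79 at chr9:127444952-127444981 on the plus strand, with 1, and ZNF564 at chr19:12527571-12527600 on the minus strand, with 4.
ZNF699: gaatgtaaaGAATGTGGGAAAggttttagt
ZNF79: aaatgtaatGAATGTGGGAAAttcttcagt
ZNF564: gcatgtccgGAATGTGGGAAAgccttcatt
All 3 lines keep cysteine codons (tgt) at the same spacing, and the bases on either side differ. Shared sequence of this kind can move fragments between genes in counting. Of each member's 50-base words, the median share found in transcripts of other genes was 0.1% and 127 members had none, while 6 exceeded 50%. ZNF564 (84.7%) and ZNF410 (83.5%) were among the 6, so their values are uncertain.

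The replicate number moved members far more than the siRNAs did. Replicate 1 was compared with replicates 2 and 3 in the counts, with the group as a covariate. In edgeR, 151 members were lower and 39 higher in replicate 1 (190 of 256 in all, adjusted p under 0.05), against a background of 30.7% of the 14205 genes tested lower and 31.2% higher. As shares, 59.0% of members were lower and 15.2% higher. The median log2 fold change was -0.58 over members and 0.02 over all genes tested. Upper-quartile scaling shifted the median of all genes to 0.125, and relative to all genes the median of members was -0.60 with TMM and with upper-quartile scaling.

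The shift was present in each group on its own. On the log2(FPKM + 0.1) scale, which understates changes of low genes, the median ratio of replicate 1 to the mean of replicates 2 and 3 over members was -0.59 in Scramble, -0.59 in SiREV1#1 and -0.80 in SiREV1#2. Over all genes of at least 2 FPKM it was -0.06, -0.24 and -0.11. The 3 ratios share no library. Across members they correlated between groups at Pearson's r of 0.82 to 0.92, and across the 10449 genes at 0.79 to 0.93, as a description, since genes are not independent replicates. Replicate 1 was below both other libraries in all 3 groups for 161 members (62.9%), against 40.3% of the 10449 genes, and above both for 38 (14.8%), against 26.4%. Between replicates 2 and 3 of each group, 0 members differed by more than 2-fold, while replicate 1 was more than 2-fold lower for 75, 72 and 107 members in Scramble, SiREV1#1 and SiREV1#2. In bulk RNA a change per cell cannot be told apart from a change in the share of cells that carry a transcript.

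**Figure D2:**
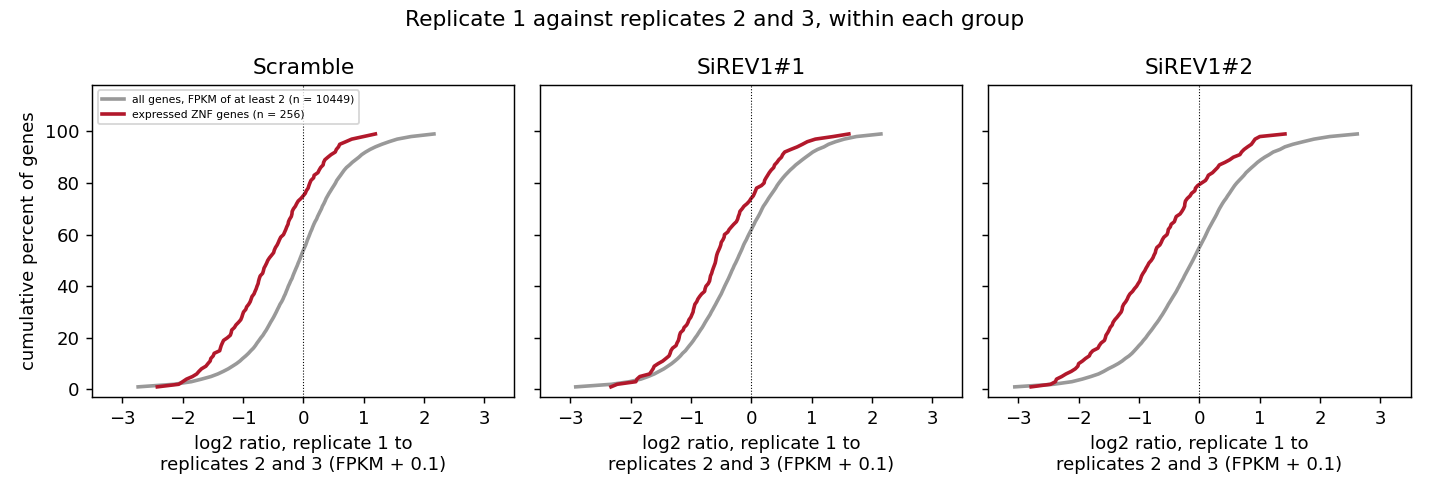
Cumulative percent of genes (y axis) by log2 ratio of replicate 1 to replicates 2 and 3 (x axis), 1 panel per group, drawn from the 1st to the 99th percentile. The red line of the 256 members lies to the left of the grey line of all 10449 genes in each panel, with medians of -0.59, -0.59 and -0.80.

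Among the members furthest down in replicate 1 was ZNF699, at 0.58, 4.41 and 4.19 FPKM in Scramble, 0.54, 2.25 and 2.33 after SiREV1#1, and 0.55, 4.79 and 4.61 after SiREV1#2 (log2 fold change -2.64, SE 0.21, adjusted p = 1.3e-05). Its replicate 1 libraries were close to each other and below all the rest. ZNF79 stood at 2.10, 17.3 and 14.2 in Scramble, 2.16, 12.02 and 11.5 after SiREV1#1, and 1.5, 13.6 and 13.6 after SiREV1#2 (log2 fold change -2.64, SE 0.17). ZNF462, a large protein with 33 finger patterns, ZNF502 and ZNF608 fell by 2.29, 2.13 and 2.10 on the log2 scale. For each of these 5, all replicate 1 libraries lay below all others.

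The members furthest up were fewer. ZNF703, a transcriptional corepressor amplified in breast cancer, was at 10.6, 3.44 and 3.76 FPKM in Scramble, 12.7, 2.89 and 2.89 after SiREV1#1, and 8.56, 1.81 and 2.00 after SiREV1#2 (log2 fold change 2.02, SE 0.15, adjusted p = 9.5e-06). Its replicate 1 libraries were above all others. ZNF32 rose by 1.81 and ZNF362 by 1.58. ZNF385A, a cofactor of p53, was at 19.7, 12.8 and 13.8 in Scramble, 53.3, 16.02 and 17.6 after SiREV1#1, and 27.2, 13.3 and 16.1 after SiREV1#2 (log2 fold change 1.14, SE 0.19). ZNF576 rose by 1.11.

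Members on chromosome 19 and members with a KRAB pattern had lower medians in replicate 1 than the other members. The median log2 fold change was -0.79 over the 91 members on chromosome 19 and -0.40 over the other 165, while over all 1046 tested genes of chromosome 19 it was 0.10. With a KRAB pattern it was -0.79 (81 of 117 lower, 5 higher), and without it -0.38 (70 of 139 lower, 34 higher). Of all genes tested at any GC content, 30.7% were lower and 31.2% higher. By finger number the median was -0.73 for the 119 members with 10 or more, -0.60 for the 91 with 5 to 9 and -0.24 for the 46 with fewer. GC content moved with the same members. The median was -0.74 at a coding GC under 45% (108 members), -0.76 at 45 to 60% (83) and -0.04 at 60% or more (65), and over all genes tested it was -0.27, 0.04 and 0.30 in the same ranges. At a coding GC of 45% or more, the median was -0.82 over 48 members with a KRAB pattern and -0.21 over 100 without, and under 45% it was -0.76 over 69 and -0.74 over 39. The part of GC content in these differences was not tested.

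**Figure D3:**
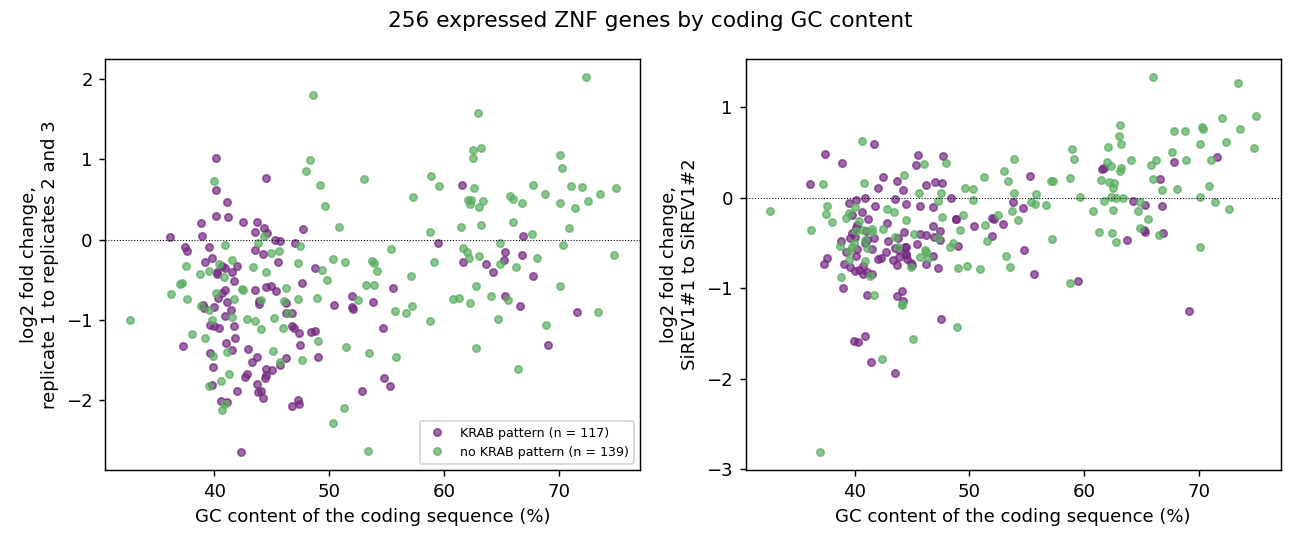
Each point is 1 of 256 members by GC content of its coding sequence in percent (x axes) and log2 fold change (y axes), of replicate 1 against replicates 2 and 3 on the left and of SiREV1#1 against SiREV1#2 with the replicate block on the right. Purple points carry a KRAB pattern (117) and green points do not (139), and the points at 60% GC or more lie higher in both panels, with medians of -0.04 and 0.19.

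Marker genes moved with the replicate number as well. AKR1B10, AKR1C1, KRT8, CDH1 and EPCAM were higher in replicate 1 than in replicates 2 and 3 of every group, AKR1B10 at 2085 to 4127 FPKM against 954 to 1206 and the cadherin CDH1 at 33 to 43.8 against 6.32 to 33.9. ALDH1A1 and KRT18 were higher in replicate 1 of Scramble and SiREV1#2 and lower in replicate 1 of SiREV1#1. Summed over members, FPKM made 0.296 to 0.332% of the library total in replicate 1 and 0.412 to 0.586% in replicates 2 and 3. The part of culture, library preparation or depth in this was not tested, and the labels name no batch.

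After SiREV1#1, few members could be called without taking the replicate number into account, and more were lower than higher once it was. In edgeR without a block, 1 of 256 members passed (ZNF770, lower), against a background of 0.296% of 14205 genes, and 29 members had an unadjusted p under 0.05. DESeq2 called 12 and limma on log2(FPKM + 1) called 3, and no share over all genes is given for these. With the replicate block, 32 members were lower and 6 higher (12.5% and 2.34%), against 6.96% and 5.32% of all genes tested. Those genes were not held to the members' limit on scramble FPKM. The median log2 fold change was -0.18 over members and 0.00 over all genes. Without a block it was -0.34 without Scramble replicate 1, -0.10 without Scramble replicate 2, -0.09 without Scramble replicate 3 and -0.10 without SiREV1#1 replicate 1. Within same-numbered libraries the median ratio of SiREV1#1 to Scramble over members was -0.28, -0.28 and -0.26 on the log2(FPKM + 0.1) scale, and -0.22, -0.03 and -0.03 over the 10449 genes of at least 2 FPKM. In 3 of 3 pairs 137 members were lower (53.5%, background 36.3%) and 25 higher (9.77%, background 19.2%). The members' median was thus close to that of all genes in pair 1 and below it in the other pairs.

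ZNF770 fell furthest. It was at 13.2, 21.9 and 23.3 FPKM in Scramble, 2.60, 2.33 and 2.28 after SiREV1#1, and 10.5, 26.0 and 24.9 after SiREV1#2. The SiREV1#1 libraries lay far below all others and hardly varied. Its log2 fold change was -2.93 without a block (SE 0.39, adjusted p = 0.042) and -2.88 with it (SE 0.30, adjusted p = 0.0021), and the call without a block was lost when any 1 of the scramble or SiREV1#1 libraries was left out. Of its exon bases, 31.9% lie in exons of another annotated gene.

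ZNF561 was at 3.73, 8.89 and 8.36 FPKM in Scramble, 1.66, 1.64 and 1.75 after SiREV1#1, and 3.33, 10.7 and 10.6 after SiREV1#2 (log2 fold change -1.80 after SiREV1#1 with the block, SE 0.33, adjusted p = 0.013). As for ZNF770, the libraries of SiREV1#1 showed no gap between replicate 1 and the others. ZNF146, whose levels stand above, fell by 1.66 (SE 0.14, adjusted p = 0.0011 with the block). ZNF30 was at 2.38, 2.20 and 2.11 in Scramble, 0.87, 0.60 and 0.83 after SiREV1#1, and 2.62, 3.22 and 2.62 after SiREV1#2. ZNF12 was at 5.81, 8.70 and 9.09 in Scramble, 2.20, 3.28 and 2.80 after SiREV1#1, and 5.32, 11.1 and 10.0 after SiREV1#2. Their log2 fold changes were -1.50 (SE 0.23) and -1.43 (SE 0.16), and for both the SiREV1#1 libraries lay below all others. Without the block none of the 4 passed in edgeR, where their adjusted p was 0.10 to 0.22, while all 4 passed in DESeq2 (adjusted p 2.89e-05 to 0.00944), and in limma on log2(FPKM + 1) ZNF146 (0.0443) and ZNF30 (0.0248) passed.

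Higher members changed less. ZNF254 was at 5.24, 3.69 and 4.61 FPKM in Scramble, 6.77, 8.70 and 9.19 after SiREV1#1, and 5.72, 7.13 and 7.01 after SiREV1#2. It was above Scramble in every siRNA library, and its log2 fold change with the block was 1.18 (SE 0.21, adjusted p = 0.012) after SiREV1#1 and 0.69 (SE 0.24, adjusted p = 0.18) after SiREV1#2. ZNF467, ZNF189, ZNF219 and ZNF512B rose by 0.99, 0.61, 0.60 and 0.45 with the block. Of these, ZNF189 overlapped between the groups, with 3.90, 6.86 and 8.53 in Scramble and 4.95, 10.97 and 11.8 after SiREV1#1.

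After SiREV1#2, the median log2 fold change over members was 0.01 without a block, and it turned to -0.45 without SiREV1#2 replicate 2 and to -0.13 without Scramble replicate 1. Without a block 0 of 256 passed in edgeR, as did 0.0% of all 14205 genes, with 7 members at an unadjusted p under 0.05. DESeq2 and limma on log2(FPKM + 1) called 1 each, again with no share over all genes given. With the replicate block 2 members were lower and 0 higher (0.781% lower), against 1.41% and 0.493% of all genes tested, again without the limit on scramble FPKM. The median ratios to Scramble within same-numbered libraries were -0.10, 0.14 and 0.10 over members, and -0.05, 0.00 and 0.01 over all genes of at least 2 FPKM. In 3 of 3 pairs 57 members were lower (22.3%, background 30.3%) and 68 higher (26.6%, background 25.5%). Pair 1 and the other pairs thus differed in sign.

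The 2 members lower after SiREV1#2 were ZNF787, whose levels stand above, and ZNF598, a ubiquitin ligase that marks collided ribosomes. ZNF598 was at 23.5, 22.2 and 21.3 FPKM in Scramble, 22.9, 24.4 and 24.3 after SiREV1#1, and 11.9, 8.29 and 8.38 after SiREV1#2. Every SiREV1#2 library was below every other library. With the block its log2 fold change was -1.16 (SE 0.17, adjusted p = 0.020) and that of ZNF787 -1.37 (SE 0.20, adjusted p = 0.020), and without it their adjusted p was 0.29 and 0.56. For both, the group ranges of FPKM did not overlap with Scramble (exact permutation test, two-sided, p = 0.1, the smallest possible).

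**Figure D4:**
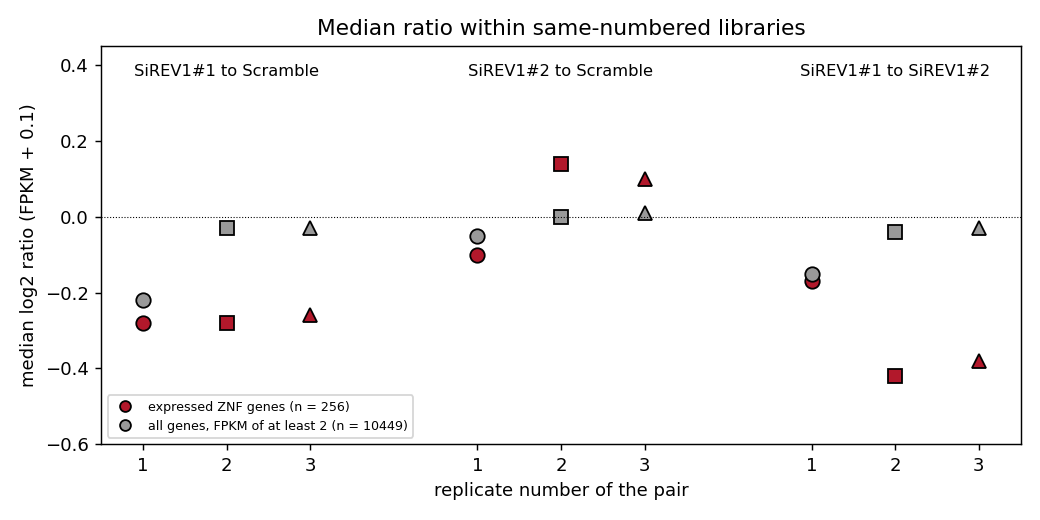
Median log2 ratio of FPKM + 0.1 (y axis) within same-numbered libraries (x axis), for SiREV1#1 to Scramble, SiREV1#2 to Scramble and SiREV1#1 to SiREV1#2. Red symbols are the 256 members and grey symbols all 10449 genes of at least 2 FPKM. In pairs 2 and 3 the members lie below all genes after SiREV1#1 (-0.28 and -0.26 against -0.03) and above them after SiREV1#2 (0.14 and 0.10 against 0.00 and 0.01), and in pair 1 both sets lie close together.

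The siRNAs were compared directly. Without a block, ZNF770 (log2 fold change of SiREV1#1 against SiREV1#2 -2.87, SE 0.41, adjusted p = 0.037) and ZNF30 (-1.92, SE 0.29, adjusted p = 0.041) passed in edgeR, 2 of 256 members against 0.676% of all genes. The call of ZNF30 was lost without the filter (adjusted p = 0.0505) and when any library but SiREV1#1 replicate 1 was left out (0.0694 to 0.238), and that of ZNF770 when any library but Scramble replicate 1 or SiREV1#2 replicate 1 was left out (0.0649 to 0.23). With the replicate block 44 members were lower after SiREV1#1 and 10 higher (17.2% and 3.91%), against 8.87% and 8.75% of all genes tested. The median was -0.25 over members and 0.00 over all genes. Pair by pair it was -0.17, -0.42 and -0.38 over members and -0.15, -0.04 and -0.03 over all genes of at least 2 FPKM, and 136 members were lower in 3 of 3 pairs (53.1%, background 35.9%) and 42 higher (16.4%, background 23.9%).

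In the fit without a block, leaving out 1 library turned this direction. Without SiREV1#2 replicate 2, which left replicate 1 as the only library of that group in the counts, the median turned from -0.21 to 0.29, and without SiREV1#2 replicate 1 it was -0.55. With 1 SiREV1#2 library left, that fit sets all SiREV1#1 libraries against it whatever its number. Within pairs 1, 2 and 3 the members' median was -0.17, -0.42 and -0.38. Over all genes of at least 2 FPKM it was -0.15, -0.04 and -0.03. The cause of the turn was not tested. On replicates 2 and 3 alone, a fit added after seeing the data, 145 members were lower and 34 higher after SiREV1#1 than after SiREV1#2 (background 27.7% and 26.6%). In the same fit 124 were lower and 25 higher after SiREV1#1 than in Scramble (background 23.9% and 22.6%), and 36 lower and 88 higher after SiREV1#2 (background 18.6% and 19.8%). That fit has 1 library of SiREV1#2, which is assumed to vary like the other groups.

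ZNF561, ZNF146 and ZNF564 were, after ZNF770 and ZNF30, the members lowest after SiREV1#1 relative to SiREV1#2, with log2 fold changes of -1.82, -1.79 and -1.59 with the block. ZNF564 was at 1.59, 2.38 and 3.12 FPKM in Scramble, 0.64, 1.09 and 0.81 after SiREV1#1, and 1.69, 3.25 and 2.96 after SiREV1#2. On the other side stood ZNF598 (1.33, SE 0.17) and ZNF787 (1.26, SE 0.20). ZNF579 (0.90), ZNF865 (0.88) and ZNF367 (0.80) followed. ZNF579 was at 15.1, 11.4 and 10.7 in Scramble, 17.8, 12.9 and 12.3 after SiREV1#1, and 11.3, 6.28 and 6.32 after SiREV1#2. Each SiREV1#1 library was above all of SiREV1#2.

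As with the replicate number, GC content and the KRAB pattern went with the difference between the siRNAs. With the block the median was -0.50 over members under 45% coding GC (26 of 108 lower, 0 higher), -0.24 at 45 to 60% and 0.19 at 60% or more (1 of 65 lower, 9 higher). Over all genes tested it was -0.23, 0.03 and 0.20. Of all genes at any GC content, 8.87% were lower and 8.75% higher. The counts by GC range and KRAB pattern are thus not set against genes of the same GC range. Members with a KRAB pattern had a median of -0.44 (26 lower, 0 higher) and those without it -0.10 (18 lower, 10 higher). Spearman's rho between coding GC and the fold change was 0.49 across the 256 members and 0.29 across 13879 genes, as a description, the points sharing libraries, depth and base composition. Against Scramble it was 0.32 over members after SiREV1#1 and -0.38 after SiREV1#2.

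Members were also described by short matches to the siRNAs, because bases 2 to 8 of a guide strand, its seed, can pair with transcripts other than the target. The words searched, on the sense strand of transcripts only, were CAGGAAT for SiREV1#1 and GGACGAC for SiREV1#2, and they have no overlap with each other. They are shown in capitals at the target sites in REV1 (GRCh38, minus strand, coding sequence), at chr2:99404474-99404492 for SiREV1#1 and, across an exon junction, between chr2:99442452-99449336 for SiREV1#2.
REV1, SiREV1#1: gaacagtgacgCAGGAATa
REV1, SiREV1#2: gcatcaaagctGGACGACt
CAGGAAT occurred in the coding sequence or 3′ UTR of 77 members (30.1%) and of 27.3% of the matched genes tested, and GGACGAC in 18 members (7.03%) and 11.1% of genes. A match is a description of letters and not of a bound site.

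After SiREV1#1, the 77 members with CAGGAAT had a median log2 fold change of -0.37 with the block, 19 lower and 0 higher. The 179 without it had -0.10, 13 lower and 6 higher. Over all genes tested, the median was -0.10 with the word (3791 genes, 12.3% lower and 4.41% higher) and 0.04 without it (10088 genes, 5.10% lower and 5.78% higher). The word in the 3′ UTR (34 members) went with -0.36 and in the coding sequence (46 members) with -0.43. Members with the word were more often low in GC, and within 45% coding GC or more the medians were -0.29 with it (36 members) and -0.07 without (112), and under 45% they were -0.45 (41) and -0.23 (67). After SiREV1#2 the same 77 had a median of 0.08. The 18 members with GGACGAC had a median of -0.17 after SiREV1#2 and included both members that passed, and the 238 without it had 0.06, with 0 called in either direction. Over all genes the median was -0.31 with GGACGAC (1542 genes, 8.30% lower) and 0.03 without it (12337 genes, 0.576% lower).

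**Figure D5:**
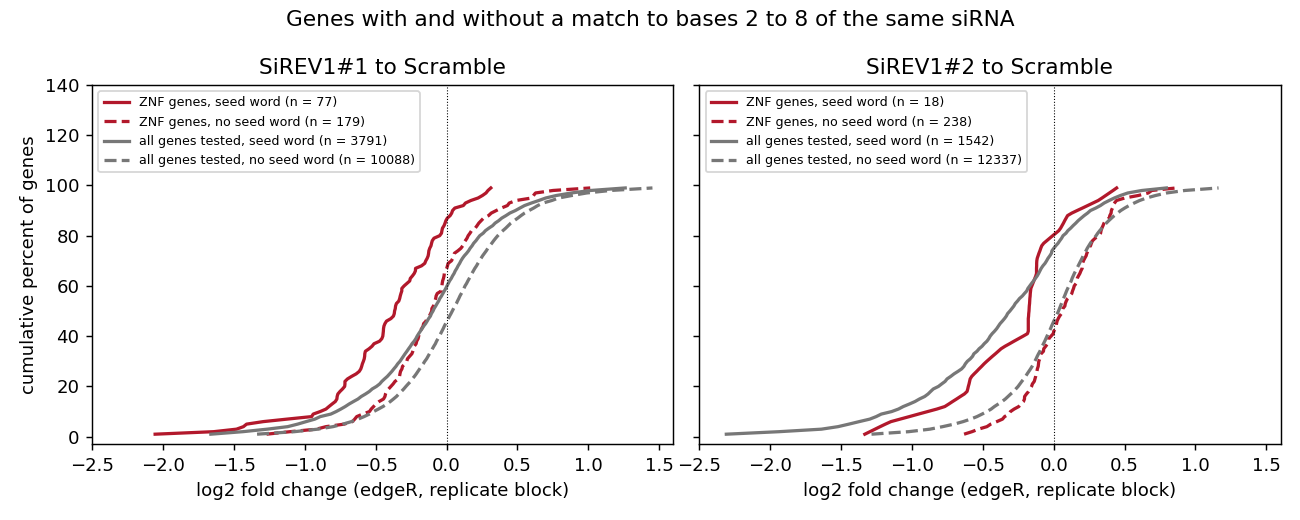
Cumulative percent of genes (y axis) by log2 fold change against Scramble with the replicate block (x axis), from the 1st to the 99th percentile, for SiREV1#1 on the left and SiREV1#2 on the right. Solid lines hold a match to bases 2 to 8 of the same siRNA in the coding sequence or 3′ UTR and dashed lines do not, red for members and grey for all genes tested. In each panel the solid lines lie to the left, with member medians of -0.37 against -0.10 after SiREV1#1 and -0.17 against 0.06 after SiREV1#2.

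The matches in the members that moved most are shown with their surroundings, in the sense of the transcript and with the word in capitals. ZNF770 held CAGGAAT 2 times in its 3′ UTR, at chr15:34980324-34980353 and chr15:34979834-34979863 on the minus strand.
ZNF770, site 1: atgtttacttacCAGGAATattttctaagt
ZNF770, site 2: ttataaaatcttCAGGAATgacattctcta
ZNF12 likewise held 2 in its 3′ UTR, at chr7:6690268-6690297 and chr7:6688573-6688602 on the minus strand.
ZNF12, site 1: tacagtacattaCAGGAATtgtatgttcac
ZNF12, site 2: tatggtacgtaaCAGGAATtacatctggta
ZNF561 held 1 in the 3′ UTR and 1 in the coding sequence. ZNF146, which fell by a similar amount, held none in either. CAGGAAT also lay in the coding sequences of ZNF622 and ZNF207. After SiREV1#1 with the block, ZNF622 passed and ZNF207 did not.

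In other members the word lay next to the letters of a cysteine codon. ZNF564 held 4 copies in its coding sequence, 3 of them next to cysteine codons, of which those at chr19:12527493-12527522 and chr19:12527325-12527354 (minus strand) are shown, and ZNF30 held 1 at chr19:34943321-34943350 (plus strand). ZNF473, with 2 copies, was chosen for this display after its values were seen, and its copy at chr19:50046712-50046741 (plus strand) is given.
ZNF564, site 2: ccatataaatgtCAGGAATgtgggaaagcc
ZNF564, site 4: ccttataaatgtCAGGAATgtggaaaagcc
ZNF30: ccacgtgaatgtCAGGAATatggaaagacc
ZNF473, site 2: ccttatgtttgtCAGGAATgcgggaaagcc
In each, the word directly follows tgt, the letters of a cysteine codon. In ZNF30 no second tgt or tgc follows at the spacing of a finger, so that copy is not among the 10 counted below. In ZNF564 site 2 the word runs into the 12-base finger word, with which it overlaps in gaat. Of 57 coding copies in 46 members, counted without the chromosome whose sequences are not shown, 10 copies in 7 members stood between the cysteine codons tgt or tgc at the spacing of a finger, and 4 copies ran into the 12-base word. The reading frame was not used. ZNF473 was at 3.48, 6.38 and 6.05 FPKM in Scramble, 2.08, 2.17 and 2.09 after SiREV1#1, and 3.15, 9.42 and 9.04 after SiREV1#2 (log2 fold change -1.21 after SiREV1#1, SE 0.29, adjusted p = 0.033 with the block).

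GGACGAC lay in the coding sequence of ZNF787, at chr19:56088069-56088098, and of ZNF598, at chr16:1998263-1998292, both on the minus strand. It was also present in ZNF865, in both the coding sequence and the 3′ UTR of ZNF579 and, 2 times, in the coding sequence of ZNF367. These genes, like ZNF787 and ZNF598, had been picked as the members furthest up after SiREV1#1 relative to SiREV1#2. Their direction was thus fixed by the choice. GGACGAC was likewise present in ZNF512B, ZNF462 and ZNF143, which did not pass after SiREV1#2, with log2 fold changes of 0.10, -0.12 and 0.47. ZNF579 also held CAGGAAT in its 3′ UTR, and its log2 fold change after SiREV1#1 was 0.29 (adjusted p = 0.215).
ZNF787: cggggaggaggaGGACGACgacgacgaggc
ZNF598: gcatgctgcccgGGACGACgacttcccctc
Both sites continue with gac after the word, and the stretch in ZNF787 contains repeated codons for acidic residues. Their coding GC content was 73.4% and 66.0%.

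Members with roles in RNA, ribosomes and cell division were taken as a list of 11 genes, of which 10 were members. With the block 3 of the 10 were lower after SiREV1#1 and 0 higher (ZNF622, ZNF106 and ZNF330), against 6.96% and 5.32% of all genes. The list median was -0.39. After SiREV1#2 ZNF598 alone was lower, against 1.41% of all genes tested. In replicate 1, 5 of the 10 were lower and 0 higher, against 30.7% and 31.2% of all genes. ZNF622, a factor of large ribosomal subunit maturation, was at 15.8, 45.3 and 43.0 FPKM in Scramble, 8.39, 20.7 and 21.7 after SiREV1#1, and 13.1, 41.1 and 43.7 after SiREV1#2. Its log2 fold change was -1.41 (SE 0.11) in replicate 1 and -0.94 (SE 0.14) after SiREV1#1. ZNF593, which acts on the same subunit, was at 26.7, 45.3 and 43.4 in Scramble, 18.9, 30 and 28.6 after SiREV1#1, and 28.8, 41.5 and 39.0 after SiREV1#2, with an adjusted p of 0.051 after SiREV1#1. All of its exon bases also lie in another annotated gene, so its reads may not be its own. ZNF638, an RNA-binding protein, was at 18.8, 27.8 and 31.5, then 13.2, 27.2 and 27.3, then 19.6, 45.1 and 44.2, and did not pass after either siRNA.

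Regulators of promoters and cofactors were a list of 16, all of them members. After SiREV1#1, 1 of the 16 was lower with the block and 0 higher, against 6.96% and 5.32% of all genes tested. The lower gene was ZNF263 (log2 fold change -0.77, SE 0.12, adjusted p = 0.0076). It binds DNA through 9 fingers and was at 10.95, 15.0 and 15.0 FPKM in Scramble, 4.95, 9.06 and 9.07 after SiREV1#1, and 10.3, 16.1 and 16.4 after SiREV1#2. Each SiREV1#1 library lay below all libraries of the other groups. After SiREV1#2, 0 of 16 passed with the block, against 1.41% of all genes lower and 0.493% higher. Between the siRNAs ZNF263, ZNF217 and ZNF143, a promoter-binding activator, were lower after SiREV1#1 (-0.84, -0.77 and -0.67), and 0 were higher. Of all genes tested, 8.87% were lower and 8.75% higher. In replicate 1, 11 were lower and 1, ZNF384, was higher (0.53, SE 0.16), with 53.9% of its exon bases in another annotated gene. Over all genes the shares were 30.7% and 31.2%.

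Some regulators followed the replicate number closely. ZNF274, a KRAB protein that brings SETDB1 to the 3′ ends of ZNF genes, was at 7.26, 21.2 and 21.3 FPKM in Scramble, 4.94, 19.1 and 18.4 after SiREV1#1, and 5.30, 28.2 and 28.8 after SiREV1#2. Its log2 fold change in replicate 1 was -1.89 (SE 0.15, adjusted p = 1.1e-05). ZNF217, an oncogenic corepressor subunit, was at 12.9, 31.6 and 33.9 in Scramble, 11.1, 21.2 and 22.7 after SiREV1#1, and 14.1, 49.7 and 46.9 after SiREV1#2, with replicate 1 lowest in every group (-1.27, SE 0.16). ZNF592, ZNF687 and ZNF532, which belong to 1 complex, had log2 fold changes in replicate 1 of -0.83 (adjusted p = 0.00017), -0.74 (adjusted p = 0.00083) and -0.24 (adjusted p = 0.17), and the difference between them was not tested.

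Genes of chromatin silencing, among them TRIM28 and SETDB1, through which KRAB proteins act, were a list of 17, none of them members. With the block 1 was higher (CBX1, log2 fold change 0.64) and 2 lower (UHRF1, -0.93, and DNMT1, -0.51) after SiREV1#1, and 1 was lower after SiREV1#2 (UHRF1, -1.62). Of all genes tested, 5.32% were higher and 6.96% lower after SiREV1#1, and 1.41% were lower after SiREV1#2. TRIM28 was at 249, 218 and 203 FPKM in Scramble, 195, 184 and 179.5 after SiREV1#1, and 245, 157 and 162 after SiREV1#2, and passed after neither siRNA. In replicate 1, 8 of the 17 were higher and 5 lower, against 31.2% and 30.7% of all genes, with a median of 0.18 beside -0.79 for members with a KRAB pattern. SETDB1 was among those lower (-0.77, SE 0.13) and CHD4 among those higher (0.77, SE 0.09).

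Genes with symbols that start with ZFP, ZSCAN, ZKSCAN or ZBTB and a number and a mean scramble FPKM of at least 2 numbered 55. This choice by symbol also took ZBTB8OS, which is not a zinc finger gene. In replicate 1, 28 were lower and 9 higher, against 30.7% and 31.2% of all genes, with a median of -0.42 between that of members and that of all genes tested. After SiREV1#1 with the block 1 was lower and 2 higher, against 6.96% and 5.32% of all genes tested. The median of the 55 was -0.06, beside -0.18 for members. After SiREV1#2, 0 passed with the block, against 1.41% of all genes lower and 0.493% higher, and the median was 0.05 beside 0.04.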

How the data were processed

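RNA from 9 libraries was sequenced by the study on the BGISEQ-500 platform. The authors deposited, per gene and library, expected counts without normalization (42.6% of values not whole) and FPKM values rounded to 2 decimals. The submitters' processing notes name StringTie 1.3.3b and the build hg38. The aligner is not given in the sources used here, nor is strandedness.

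Groups and replicate numbers came from the sample titles. The count column of SiREV1#2 replicate 3 repeats that of replicate 2, so 8 libraries entered count fits where 9 had been planned. Counts were rounded, filtered with filterByExpr (14205 genes), TMM-scaled and tested with edgeR 4.0.16 (quasi-likelihood F test, 3 groups, Benjamini-Hochberg adjustment over all genes, adjusted p under 0.05, R 4.3.3). SE is the absolute log2 fold change over the square root of F. Deviations of same-numbered libraries correlated at 0.734 to 0.929 over 9 pairs and 11400 genes, largely through the shift of replicate 1, so the fit with the number as a block is given beside results it changes. The biological coefficient of variation was 0.412 without the block and 0.161 with it. With only replicate 1 set against replicates 2 and 3 it was 0.142. The fits were also run on simulated data. These had a smaller spread than the libraries here and no effect of the replicate number, so they cannot show how the fits perform here. Alternatives were that block, DESeq2 1.42.0, upper-quartile scaling, no filter, limma 3.58.1 on log2(FPKM + 1) and log2(FPKM + 0.1), other limits of membership, and leaving out each library.

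Members, lists and tests were chosen with earlier results of these data known. Named members are the 5 of highest scramble FPKM, per comparison up to 5 in each direction of largest change among those called (with the block where fewer than 5 passed without it), the 3 on either side of the limit, and the 2 role lists, of which the text gives examples. Sequence features came from GENCODE 29 (GRCh38), 1 coding transcript per gene. Python 3.11.15 with scipy 1.17.1 served for the rest.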

Additional observations from a re-analysis of the deposited data

Results flagged for a closer look

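Some members differed between the siRNAs in the direct test of SiREV1#1 against SiREV1#2. Without a block these were ZNF770 (log2 fold change -2.87) and ZNF30 (-1.92), and both calls were lost when some single libraries were left out. With the replicate block 54 of the 256 members differed (44 lower and 10 higher after SiREV1#1, against 8.87% and 8.75% of all genes tested), among them ZNF146 (-1.79), ZNF598 (1.33) and ZNF787 (1.26). Groups held 3 libraries at most, so no library was tested for standing apart within its group.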

How the results depend on the processing

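Calls depended on how the replicate number was treated. Of all genes tested, edgeR without a block called 0.296% after SiREV1#1, 0.0% after SiREV1#2 and 0.676% between the siRNAs. With the block, 6.96% were lower and 5.32% higher after SiREV1#1, 1.41% and 0.493% after SiREV1#2, and 8.87% and 8.75% between the siRNAs. In replicate 1 they were 30.7% and 31.2%. Shares for edgeR on replicates 2 and 3 alone stand above. None is given for DESeq2 or limma, so their numbers have no background. The number of members called after SiREV1#1 was 1 in edgeR without a block, 38 with the replicate block, 12 in DESeq2, 3 in limma at either pseudocount, 63 in limma with the replicate block, and, on replicates 2 and 3 only (chosen after seeing the data), 149 in edgeR and 153 in limma. After SiREV1#2 the numbers were 0, then 2, 1, 1, 20, 124 and 139 in the same order. Between the siRNAs they were 2, then 54, 15, 10 (11 at a pseudocount of 0.1), 121, 179 and 188, with 1 without the filter and 1 among the 138 members from 5 FPKM. In replicate 1 against replicates 2 and 3 the number was 190, and 107 among those 138. Leaving out each library in turn gave 0 to 1 after SiREV1#1, 0 to 0 after SiREV1#2, 0 to 1 between the siRNAs and 177 to 200 for replicate 1. The members' median after SiREV1#2, 0.01, became -0.13 without Scramble replicate 1, -0.45 without SiREV1#2 replicate 2 and -0.03 among members from 5 FPKM (range over libraries left out -0.45 to 0.27). Between the siRNAs, from -0.21, it became 0.29 without SiREV1#2 replicate 2, where fewer libraries were left (range -0.55 to 0.29). The causes of these changes were not tested. Membership by the mean of all 9 libraries changed no number called. Low counts, SiREV1#2 with 2 libraries and shared finger sequence limit these values.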
